A study of Mus musculus with 27 samples.

Results

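The Cdkn2a locus and the other genes of the cyclin-dependent kinase (CDK) inhibitors were followed through mouse mammary tumor cell lines treated with Wnt3a or TGFβ. The set held 9 genes of the 24454 in the table: Cdkn2a, Cdkn2b and Mtap, which lie side by side on chromosome 4, the related inhibitors Cdkn2c and Cdkn2d, the inhibitors Cdkn1a, Cdkn1b and Cdkn1c, and Rb1. These members were chosen by measured values of the same libraries, namely the lines without Cdkn2a and Cdkn2b reads and the TGFβ change of Cdkn2b and Cdkn1a. For this reason the values of Cdkn2a, Cdkn2b and Cdkn1a are given as a description with no test in every comparison, and only the other members are tested. Of the 9 genes, 8 passed a filter of at least 1 CPM (reads per 1000000 reads assigned to genes) in 2 or more libraries, and Cdkn1c did not. Besides the 3 neighbors, Cdkn2c lies farther along chromosome 4 (109660876 to 109666756, GRCm38), Cdkn2d on chromosome 9 (21288459 to 21291421), Cdkn1a on 17 (29090979 to 29100722), Cdkn1b on 6 (134920401 to 134925525), Cdkn1c on 7 (143458339 to 143461059) and Rb1 on 14 (73192858 to 73325951).

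The lines came from mammary tumors of MMTV-PyMT mice on the FVB/N background, in which the MMTV promoter drives the polyoma middle T oncogene in the mammary epithelium, and fibroblasts had been removed by differential trypsinization. All lines carried a domain mutant of Bcl9 and Bcl9L, coactivators that connect β-catenin with Pygopus. In dHD1 the Pygopus-binding domain was affected and in dHD2 the β-catenin-binding domain. In dHD1_fl and dHD2_fl the mutant allele stood beside a floxed wild-type allele, and in dHD1_rec and dHD2_rec the floxed allele had been removed in culture with an adenovirus that expresses Cre and GFP. Each genotype was represented by 2 lines, which the labels assign to different mice, and dHD2_rec by 3, whose number of mice is not stated. Each line gave 1 library without cytokine, 1 after 3 days of Wnt3a at 100 ng/ml and 1 after 4 days of TGFβ at 2 ng/ml, 27 libraries in all. The controls are labelled with 4 days, so that for Wnt3a the cytokine and the time in culture cannot be told apart.

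INK4 proteins, encoded by Cdkn2a, Cdkn2b, Cdkn2c and Cdkn2d, bind CDK4 and CDK6 and keep them from phosphorylating the retinoblastoma protein, the product of Rb1. Cdkn2a also encodes p19Arf from another promoter and reading frame, a protein that holds back Mdm2 and so stabilizes p53. CIP/KIP proteins, encoded by Cdkn1a (p21), Cdkn1b (p27) and Cdkn1c (p57), inhibit a wider range of cyclin-CDK complexes, and p21 is a classical p53 target. In normal epithelial cells TGFβ is known to arrest growth through induction of p15Ink4b, the product of Cdkn2b, and p21. Mtap encodes an enzyme of methionine salvage and is often lost together with the Cdkn2a locus in human tumors.

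The starts of the genes whose reads were absent in some lines, and of Cdkn1a, are shown as the 250 bases before each annotated start (RefSeq sequences, build GRCm38.p6). Capitals mark GGGCGG on either strand, the core letters of a GC box, and CATG followed after 6 bases by CATG on either strand, an arrangement found within the p53 response element. The motifs did not overlap. Cdkn2a has 2 annotated starts, the upstream start for the Arf transcript and the downstream start, inside the gene, for the Ink4a transcript, and gene totals do not separate their reads. Cdkn1a also has 2, of which the downstream lies inside the gene. The Cdkn2b window lies within the span of the lncRNA Gm12610, annotated from 89295180 to 89518621 on chromosome 4.
Cdkn2a, upstream start, chr4:89294620-89294869, minus strand: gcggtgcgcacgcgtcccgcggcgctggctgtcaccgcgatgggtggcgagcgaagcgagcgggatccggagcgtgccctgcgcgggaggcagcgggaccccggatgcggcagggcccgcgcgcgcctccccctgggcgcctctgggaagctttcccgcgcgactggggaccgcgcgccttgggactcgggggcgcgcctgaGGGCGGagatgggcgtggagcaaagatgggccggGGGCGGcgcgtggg
Cdkn2a, downstream start, chr4:89282193-89282442, minus strand: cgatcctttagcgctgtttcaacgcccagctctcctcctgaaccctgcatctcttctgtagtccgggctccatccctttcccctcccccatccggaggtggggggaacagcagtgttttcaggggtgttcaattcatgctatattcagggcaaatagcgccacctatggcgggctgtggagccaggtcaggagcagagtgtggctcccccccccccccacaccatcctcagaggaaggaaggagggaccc
Cdkn2b, chr4:89311033-89311282, minus strand: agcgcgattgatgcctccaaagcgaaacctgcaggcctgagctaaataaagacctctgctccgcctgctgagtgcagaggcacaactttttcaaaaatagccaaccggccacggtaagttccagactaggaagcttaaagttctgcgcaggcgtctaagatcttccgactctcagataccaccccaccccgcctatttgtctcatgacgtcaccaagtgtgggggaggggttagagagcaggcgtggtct
Cdkn1a, upstream start, chr17:29090729-29090978, plus strand: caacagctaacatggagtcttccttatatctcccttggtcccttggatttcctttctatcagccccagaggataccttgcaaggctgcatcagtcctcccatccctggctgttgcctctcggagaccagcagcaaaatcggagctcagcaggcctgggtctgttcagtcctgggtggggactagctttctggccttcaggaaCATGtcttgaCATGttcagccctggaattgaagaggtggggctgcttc
Cdkn1a, downstream start, chr17:29093519-29093768, plus strand: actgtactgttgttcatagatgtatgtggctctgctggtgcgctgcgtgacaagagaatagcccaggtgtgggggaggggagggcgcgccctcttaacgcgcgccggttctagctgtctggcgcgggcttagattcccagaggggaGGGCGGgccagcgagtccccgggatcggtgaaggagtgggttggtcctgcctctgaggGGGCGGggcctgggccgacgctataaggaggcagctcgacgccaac
GGGCGG occurred in 32.7% of the 32851 promoter windows of this length, and among the 10 windows that matched 7 of the members it occurred in 5. The upstream Cdkn2a window held it 2 times, the downstream Cdkn1a window 2 times, and the other 3 windows printed did not hold these letters. The CATG pair occurred in 0.49% of all windows and, among the members, in the upstream window of Cdkn1a alone. The windows also differed in their CG dinucleotides. The upstream Cdkn2a window held 40, more than 98.7% of all windows, against 7 in the downstream window, 12 in that of Cdkn2b and a median of 6 over all windows. These letters are a description of the windows and say nothing of binding.

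Libraries held 21.86 to 33.69 M (1000000) reads assigned to genes. Bcl9 was read at 32.4 to 104 CPM and Bcl9l at 70.7 to 346 CPM over all 27 libraries, with overlapping ranges between genotypes. Lines were labelled as epithelial tumor lines, and in 7 of 9 both Epcam and Cdh1 were read at 1 CPM or more in every library. In dHD1_fl line 2 and dHD1_rec line 2 the epithelial cell adhesion gene Epcam did not exceed 0.0746 CPM in any library, against 12.5 CPM or more in every library of the other lines, and Cdh1 (E-cadherin) did not exceed 0.522 CPM. Keratins were read in these lines to a different degree. Of the 6 epithelial markers, dHD1_rec line 2 had 3 at 1 CPM or more in all its libraries, with Krt8 at 988 to 2880 CPM and Krt14 at 87.3 to 228 CPM, and dHD1_fl line 2 had 1, Krt14 at 31.7 to 356 CPM. The summed level of the 6 was 1220 to 3000 CPM in dHD1_rec line 2, which overlapped the 2060 to 13900 CPM of dHD1_fl line 1, and 37.6 to 358 CPM in dHD1_fl line 2. The summed level of 6 fibroblast markers was 1400 to 3990 CPM in dHD1_fl line 2 and 4360 to 5730 CPM in dHD1_rec line 2, and at most 274 CPM in the other lines, while the fibroblast marker Lum had 0 reads in 8 of 9 lines. Libraries of dHD2_rec lines 2 and 3 correlated at 0.993 to 0.997 over tested genes, above the 0.807 to 0.957 of 15 other replicate pairs, so that these lines count for less than independent samples. Whether a rec line derives from the fl line of the same number is not stated in the sources used here.

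Cdkn2a (chromosome 4, 89274473 to 89294619, GRCm38) and Cdkn2b (89306289 to 89311032) were read in 6 lines and had 0 reads in 3. The lines without reads were dHD1_fl line 2, dHD1_rec line 1 and dHD1_rec line 2, in all 9 of their libraries. Together these libraries held 246.5 M reads, and a count of 0 allowed at most 0.089 to 0.128 CPM per library (3 reads, counting error only). In the 18 libraries of the 6 other lines Cdkn2a ranged from 6.02 to 127 CPM, that is 159 to 3024 reads, and Cdkn2b from 15.8 to 312 CPM, or 350 to 7420 reads. The lowest of these libraries lay at least 46.9-fold above the highest floor for Cdkn2a and 123-fold for Cdkn2b. In the whole table only these 2 genes had 0 reads in all 9 libraries and at least 1 CPM in all 18 others. Allowing up to 3 reads in the 9 libraries added no gene. The 9 libraries were defined by the absence of reads of this pair, so that its 0 reads there were fixed in advance. Of the genes that passed the filter, 44 had 0 reads in these 9 libraries, the pair included. Both dHD1_rec lines were thus without reads, dHD1_fl was split, and all 5 dHD2 lines had reads. The absence of reads therefore did not follow the fl and rec labels strictly, since dHD1_fl line 2 is labelled as carrying its floxed allele. Of the 3 lines, dHD1_fl line 2 and dHD1_rec line 2 were also the lines with the highest summed fibroblast markers and with Epcam at or near 0, while dHD1_rec line 1 had Epcam at 12.5 to 263 CPM. Single fibroblast markers were read in other lines too. In dHD1_rec line 1 the receptor gene Pdgfrb stood at 34.8 to 236 CPM and 3 of the 6 markers were at 1 CPM or more in all libraries, and of the lines with Cdkn2a reads dHD2_fl line 1 had 4 and dHD1_fl line 1 had 3. The part of the marker difference in the absence of reads was not tested. RNA was measured and the DNA of the locus was not. For differences among the lines with reads, fewer cells with a transcript and less RNA per cell cannot be told apart in bulk samples.

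**Figure D1:**
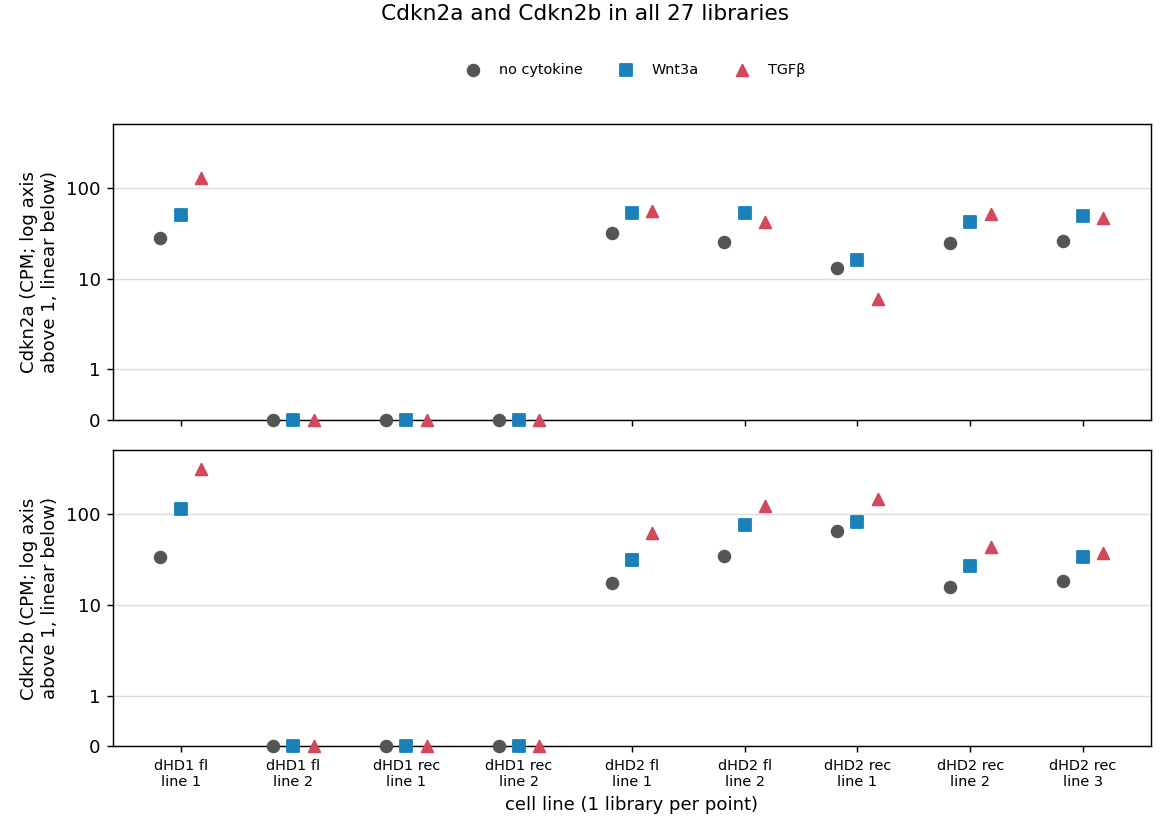
CPM of Cdkn2a (upper panel) and Cdkn2b (lower panel) in each of the 27 libraries, by cell line on the horizontal axis, with 1 point per library and the treatment given by color and shape. The vertical axes are logarithmic above 1 CPM and linear below, and the points of dHD1_fl line 2 and both dHD1_rec lines sit at 0 in both panels.

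Without cytokine, Cdkn2a stood at 27.9 CPM in dHD1_fl line 1, at 31.8 and 25.0 CPM in the dHD2_fl lines and at 12.9, 24.8 and 26.1 CPM in the dHD2_rec lines. Among the 6 lines with reads dHD2_rec line 1 was the lowest, and the remaining 5 lay between 24.8 and 31.8 CPM. Cdkn2b stood at 33.9 CPM in dHD1_fl line 1, at 17.4 and 34.6 CPM in the dHD2_fl lines and at 65.5, 15.8 and 18.2 CPM in the dHD2_rec lines. Here dHD2_rec line 1 was the highest of all. The ratio of Cdkn2b to Cdkn2a reads thus varied between lines, from 0.546 to 5.07 without cytokine. The order of both genes over the lines was therefore not the same even where both were read.

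Around the pair, Mtap on one side was read in all lines, also in those without Cdkn2a reads. Mtap (89137370 to 89181090), whose end lies 93.4 kb from Cdkn2a, was the nearest gene on that side with at least 1 CPM in every library. Without cytokine it was read at 288 CPM in dHD1_fl line 2 and at 773 and 286 CPM in the dHD1_rec lines, the lines without Cdkn2a reads. In dHD1_fl line 1 it stood at 153 CPM, in the dHD2_fl lines at 314 and 145 CPM and in the dHD2_rec lines at 395, 114 and 127 CPM. The highest Mtap level thus came from a line without Cdkn2a reads, dHD1_rec line 1, and both groups of values overlapped. On the other side the nearest gene with at least 1 CPM in every library was the transcribed pseudogene Gm12669 (91805550 to 91806555), at 19.5 to 44.0 CPM and 2510.9 kb away, whose reads are uncertain where a near-identical copy exists. Of the 61 genes of the table within 3 Mb of Cdkn2a, 11 had at least 1 CPM in every library. A further 42 did not reach 1 CPM in any, so that few genes beyond Cdkn2b can be compared between the lines.

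Besides Cdkn2b, 4 neighbors had 0 reads in all 3 libraries of a line and at least 1 CPM in another library. Hacd4, an enzyme of very long chain fatty acid synthesis 835.5 kb from Cdkn2a, had 0 reads in the 3 dHD2_rec lines and 0.318 to 13.7 CPM in the lines without Cdkn2a reads. Dmrta1, the next protein-coding gene beyond Cdkn2b, had 0 reads in both dHD1_rec lines, at most 0.0355 CPM in dHD1_fl line 2 and at most 2.35 CPM in any library. Elavl2, a neuronal RNA-binding protein gene 1916.9 kb away, had 0 reads in dHD1_fl line 2, dHD1_rec line 2 and dHD2_rec line 1, and Adamtsl1 had 0 reads in dHD2_rec lines 2 and 3. Each of these was at or near the limit of detection in a line that had Cdkn2a reads, so that none of the 4 shared the pattern of the pair. Gm12610, the lncRNA that spans Cdkn2b, had line means of 0.942 to 3.46 CPM in the 6 lines with Cdkn2a reads and at most 0.257 CPM in any library of the 3 others, a low level that did follow the pair. Libraries were stranded, but whether the counting used strand is not stated, and reads of Cdkn2b and Gm12610 may not be separable.

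**Figure D2:**
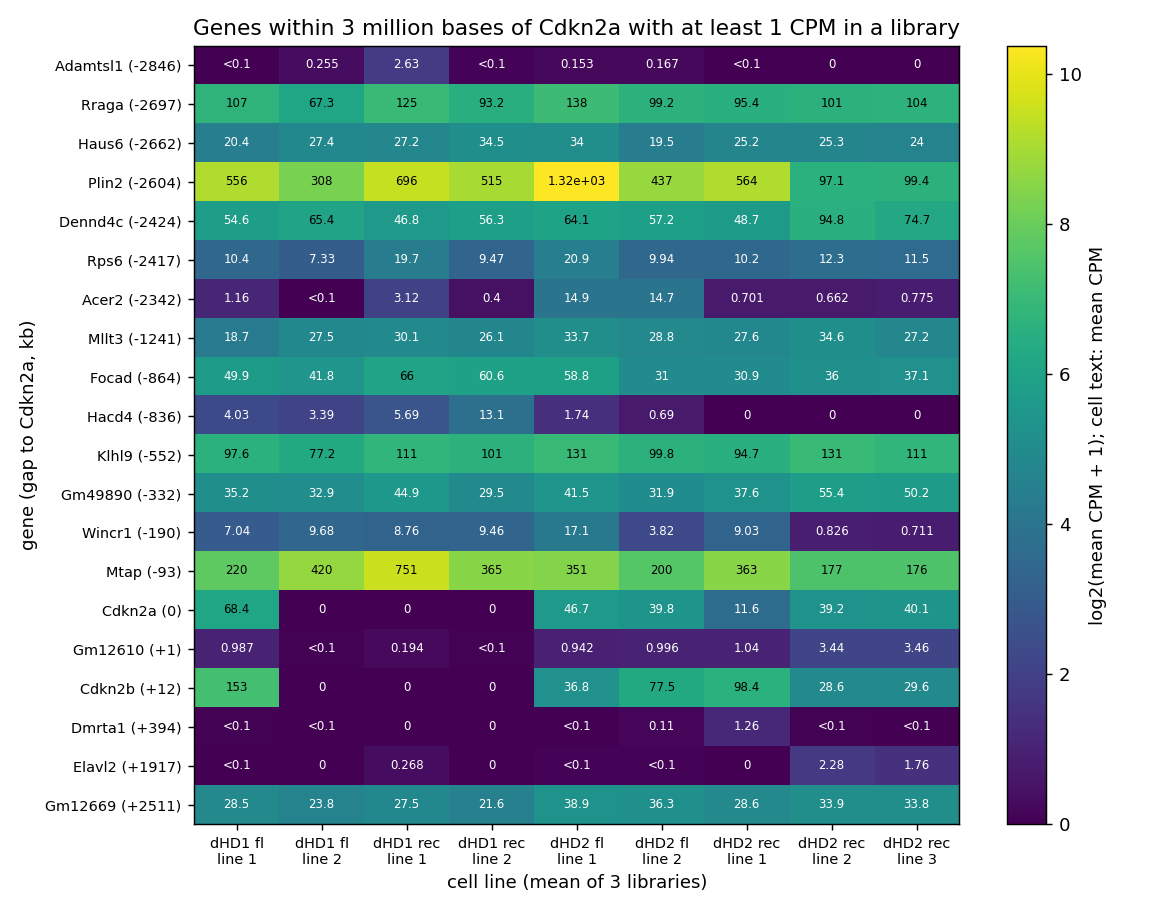
Mean CPM over the 3 libraries of each cell line (columns) for the genes within 3 Mb of Cdkn2a that reached 1 CPM in a library (rows, in chromosomal order, with the gap to Cdkn2a in kb). Color gives log2(mean CPM + 1), and the rows of Cdkn2a and Cdkn2b are at 0 in 3 columns where Mtap, 93.4 kb away, is at 365 to 751 CPM.

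The level of the members was compared per length of exon sequence (CPM per kb, exon union of GENCODE) in the 9 lines without cytokine. Mtap had the highest median at 88.8 CPM per kb, followed by Cdkn1a at 47.7, Cdkn2a at 21.1, Cdkn2c at 20.3, Cdkn2d at 17.0, Cdkn1b at 16.0, Cdkn2b at 12.5 and Rb1 at 2.96 CPM per kb. The range of each gene overlapped that of its neighbor in this order down to Cdkn2b, so that the order within these 7 genes is not firm. Rb1 stood apart from the genes with reads in every line, its highest value of 4.13 CPM per kb lying below the lowest of Cdkn1b, 10.9 CPM per kb. Cdkn1c, an imprinted inhibitor, was at or near 0 throughout, with 0 reads in 14 of 27 libraries and at most 0.370 CPM.

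**Figure D3:**
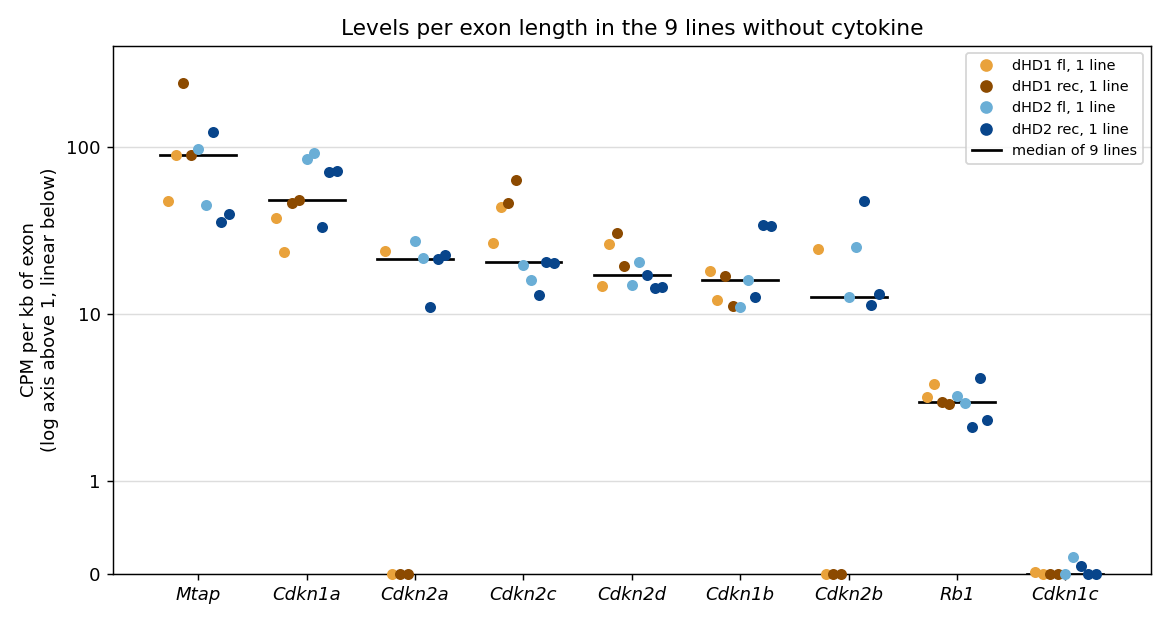
CPM per kb of exon for the 9 genes in the 9 lines without cytokine, with 1 point per line colored by genotype and a bar at the median. The vertical axis is logarithmic above 1 and linear below. Cdkn2a and Cdkn2b each have 3 points at 0, Rb1 lies at 2.10 to 4.13 and Cdkn1c lies near 0.

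Under TGFβ, Cdkn2b, whose change was used in the choice of members, had a higher CPM in each of the 6 lines with reads. It went from 33.9 to 312 CPM in dHD1_fl line 1, from 17.4 to 61.5 and from 34.6 to 123 CPM in the dHD2_fl lines, and from 65.5 to 147, 15.8 to 43.0 and 18.2 to 36.9 CPM in the dHD2_rec lines. The ratio to the untreated library of the same line was 9.21 in dHD1_fl line 1, 3.54 and 3.56 in dHD2_fl, and 2.25, 2.73 and 2.03 in dHD2_rec. The libraries of the 3 other lines stayed at 0 reads under TGFβ. The change was thus smallest in the dHD2_rec lines and largest in dHD1_fl line 1, and as the genotypes hold 2 or 3 lines with reads, or 1, this order is a description.

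Cdkn1a was read in all lines and was higher in the TGFβ library of each. In dHD1_fl it went from 133 to 571 and from 82.6 to 273 CPM, and in dHD1_rec from 163 to 183 and from 169 to 371 CPM. In dHD2_fl it went from 299 to 397 and from 324 to 454 CPM, and in dHD2_rec from 117 to 304, 251 to 502 and 254 to 552 CPM. The ratio ranged from 1.12 in dHD1_rec line 1 to 4.29 in dHD1_fl line 1, with a median of 2.17, and the untreated and treated ranges overlapped between lines (82.6 to 324 against 183 to 571 CPM). Both dHD2_fl lines, which had the highest untreated levels, had ratios of 1.33 and 1.40. In the 3 lines without Cdkn2b reads the ratio was 3.30 in dHD1_fl line 2, 1.12 in dHD1_rec line 1 and 2.19 in dHD1_rec line 2.

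The other members were tested in the limma fit over all genes, as the mean of the 4 genotypes. TGFβ called 719 of 13270 genes (5.42%) at an adjusted p of 0.05 or less combined with a log2 fold change of 1 or more in either direction, and 1184 with cell line as a replicate block. Of these, 472 were lower (3.56%) and 247 higher. The median gene had a log2 fold change of -0.16, and under median-of-ratios scaling, which brings it to -0.02, the calls split into 316 lower and 318 higher. Of the 5 tested members that the choice did not use, 3 fell and none rose. The same 3 passed with the replicate block, while Cdkn2c alone passed in edgeR and under median-of-ratios scaling. The 3 that fell are all inhibitors, Cdkn2c, Cdkn2d and Cdkn1b, while Mtap and Rb1 did not pass.

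Cdkn2c encodes p18Ink4c, an INK4 inhibitor with a role in luminal progenitors of the mammary gland. In dHD1_fl it went from 71.3 to 6.10 and from 116 to 40.7 CPM, in dHD1_rec from 123 to 46.3 and from 169 to 33.3 CPM, in dHD2_fl from 52.3 to 17.1 and from 42.5 to 6.68 CPM, and in dHD2_rec from 34.7 to 8.82, 54.6 to 28.8 and 54.3 to 32.3 CPM. It was lower in 9 of 9 lines, and the groups overlapped, since the treated level of dHD1_rec line 1 lay above the untreated levels of dHD2_fl line 2 and dHD2_rec line 1, and that of dHD1_fl line 2 above the untreated level of dHD2_rec line 1. For Cdkn2c limma gave -1.87 ± 0.32 (log2 fold change and SE, Benjamini-Hochberg adjusted p = 0.000998), or -1.70 relative to the median gene. It passed in all 18 alternatives, the adjusted p ranging from 1.66e-05 to 0.0119.

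Cdkn2d encodes p19Ink4d, which is normally periodic in the cell cycle. It went from 23.1 to 4.79 and 40.9 to 17.0 CPM in dHD1_fl, from 48.0 to 29.3 and 30.5 to 15.4 CPM in dHD1_rec, from 23.4 to 12.4 and 31.9 to 8.95 CPM in dHD2_fl, and from 26.8 to 14.5, 22.3 to 18.7 and 22.8 to 22.1 CPM in dHD2_rec. All 9 lines were lower, dHD2_rec line 3 by almost nothing. For Cdkn2d limma gave -1.03 ± 0.23 (log2 fold change and SE, adjusted p = 0.00658), or -0.87 relative to the median gene. The call was lost on the fold limit under median-of-ratios scaling (log2 fold change -0.87, adjusted p = 0.0152), in edgeR (-0.89, adjusted p = 0.0182) and without dHD1_fl line 1 (-0.93, adjusted p = 0.00453), dHD1_rec line 2 (-1.0, adjusted p = 0.0228) or dHD2_rec line 1 (-0.97, adjusted p = 0.0179). Without dHD2_fl line 2 it was lost on both counts (-0.92, adjusted p = 0.0602).

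Cdkn1b encodes p27Kip1. It went from 81.6 to 23.6 and 55.0 to 32.6 CPM in dHD1_fl, from 76.7 to 42.2 and 50.6 to 29.4 CPM in dHD1_rec, from 49.4 to 31.0 and 72.7 to 26.2 CPM in dHD2_fl, and from 56.8 to 38.9, 155 to 62.9 and 152 to 56.1 CPM in dHD2_rec. All 9 lines were lower, and dHD2_rec lines 2 and 3 began and ended above the others. For Cdkn1b limma gave -1.04 ± 0.23 (log2 fold change and SE, adjusted p = 0.0054), or -0.88 relative to the median gene. The call was lost under median-of-ratios scaling (-0.87, adjusted p = 0.0144), in edgeR (-0.95, adjusted p = 0.00889) and without dHD1_fl line 1 (-0.92, adjusted p = 0.0408) or dHD2_fl line 2 (-0.95, adjusted p = 0.0521).

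Rb1 had lower CPM in the TGFβ library of 9 of 9 lines, 7.62 to 16.9 against 12.6 to 24.9 CPM without cytokine, but did not pass (log2 fold change -0.69 ± 0.27, SE, limma, adjusted p = 0.0878, and -0.53 relative to the median gene). With the replicate block the adjusted p of Rb1 was 0.0223, and it then missed the call on the fold limit alone. Mtap was at 151 to 545 against 114 to 773 CPM, higher in 6 lines and lower in 3 (0.36 ± 0.34, SE, limma, adjusted p = 0.494). Cdkn2a was higher in 5 of the 6 lines with reads, at 127 CPM in dHD1_fl line 1, 55.6 and 41.6 CPM in dHD2_fl and 50.7 and 45.8 CPM in dHD2_rec lines 2 and 3, while dHD2_rec line 1 went from 12.9 to 6.02 CPM. In that line the ratio of Cdkn2b to Cdkn2a reads was 24.5 under TGFβ. These Cdkn2a values are a description, and the 3 lines at 0 reads without cytokine also had 0 reads under TGFβ.

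Removing both lines that lacked Epcam, an alternative chosen after seeing the data, left 21 libraries. Cdkn2c then had a log2 fold change of -1.98 (limma, adjusted p = 0.00319), Cdkn2d of -1.10 (adjusted p = 0.00101) and Cdkn1b of -1.18 (adjusted p = 0.019), so that the 3 members that fell also passed among the 7 lines with Epcam. The number of all genes called was then 1011.

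**Figure D4:**
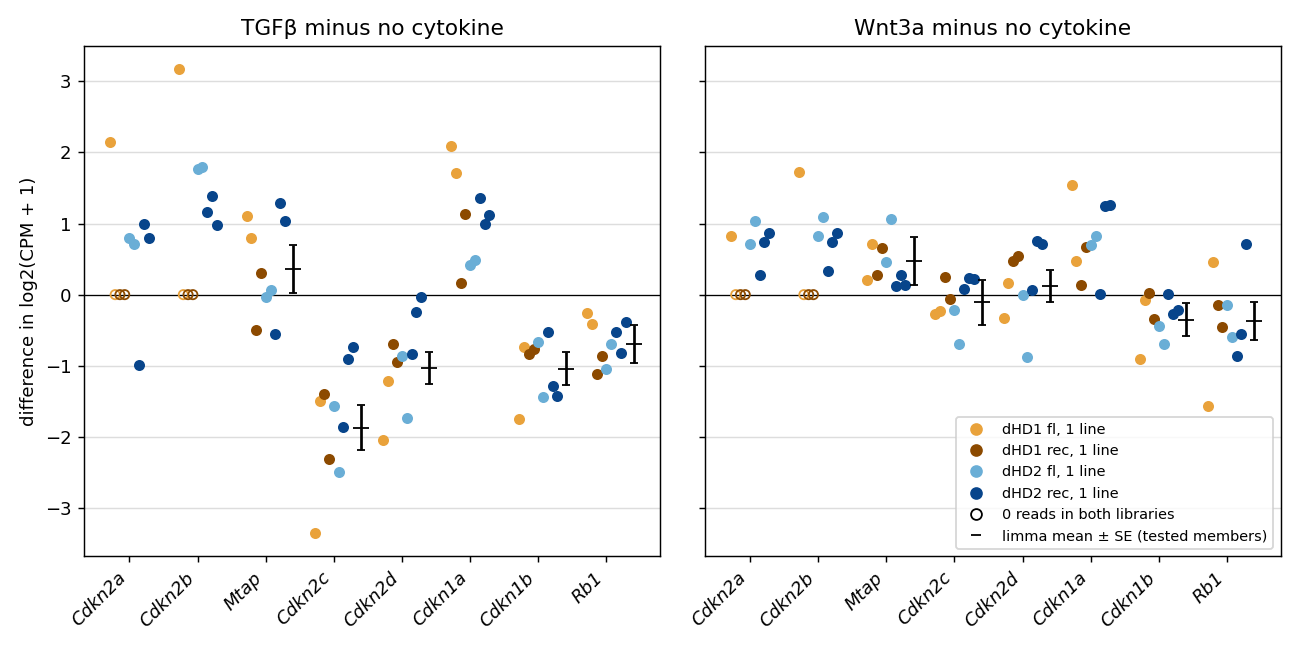
Difference in log2(CPM + 1) between the treated and the untreated library of each cell line for the 8 members that passed the filter, under TGFβ (left) and Wnt3a (right). Points are lines colored by genotype, open where both libraries had 0 reads, and black bars are limma means ± SE of the tested members. Under TGFβ all points of Cdkn2c, Cdkn2d, Cdkn1b and Rb1 lie below 0 and all points of Cdkn1a above it.

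Wnt3a called 3 of 13270 genes (0.0226%) and 32 with the replicate block. The choice of members had used the untreated libraries for Cdkn2a, Cdkn2b and Cdkn1a, which the Wnt3a comparison shares, so that the Wnt3a values of these 3 genes are a description too. None of the 5 other tested members was called by limma, edgeR or the blocked fit, and none had an unadjusted p under 0.05.

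Cdkn1a had a higher CPM in the Wnt3a library of 9 of 9 lines, by a ratio of 1.01 in dHD2_rec line 1 to 2.92 in dHD1_fl line 1. It stood at 388 and 115 CPM in dHD1_fl, 180 and 271 CPM in dHD1_rec, 487 and 575 CPM in dHD2_fl and 118, 596 and 611 CPM in dHD2_rec. The treated and untreated ranges overlapped between lines (115 to 611 against 82.6 to 324 CPM).

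The pair at the locus also had a higher CPM with Wnt3a in every line with reads. Cdkn2b had ratios of 3.37 in dHD1_fl line 1, 1.82 and 2.17 in dHD2_fl and 1.26, 1.72 and 1.85 in dHD2_rec. Cdkn2a had ratios of 1.80 in dHD1_fl line 1, 1.66 and 2.10 in dHD2_fl and 1.22, 1.70 and 1.86 in dHD2_rec. Mtap was higher in 9 of 9 lines by a ratio of 1.09 to 2.10 and did not pass (0.47 ± 0.34, SE, limma, adjusted p = 1.0). The 3 lines without Cdkn2a and Cdkn2b reads remained at 0 reads with Wnt3a.

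Cdkn2c, Cdkn2d, Cdkn1b and Rb1 had no common direction under Wnt3a, with 4, 6, 2 and 2 of 9 lines higher. Their log2 fold changes lay between -0.37 for Rb1 and 0.12 for Cdkn2d, each with an adjusted p of 1.0 in limma. With Wnt3a, Rb1 ran from 5.74 CPM in dHD1_fl line 1 to 31.7 CPM in dHD1_fl line 2. For all members the TGFβ and Wnt3a responses share the same untreated libraries.

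Recombination of the floxed allele was compared within each domain mutant without cytokine, among the 5 tested members other than Cdkn2a, Cdkn2b and Cdkn1a. In dHD1, 9 of 13270 genes were called (0.0678%), and in dHD2 73 (0.55%). None of the 5 members was called in either comparison by limma or edgeR, and none had an unadjusted p under 0.05. In dHD1 the log2 fold changes of dHD1_rec against dHD1_fl ran from -0.24 ± 0.57 (SE) for Rb1 to 1.16 ± 0.70 for Mtap. With standard errors of 0.48 to 0.70 on the log2 scale and 2 lines on each side, sizeable differences would not have passed. Cdkn2c was at 123 and 169 CPM in dHD1_rec against 71.3 and 116 CPM in dHD1_fl (0.66 ± 0.68, SE, limma, adjusted p = 1.0). The levels of Cdkn1a, a description with no test, were 163 and 169 CPM in dHD1_rec and 133 and 82.6 CPM in dHD1_fl.

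In dHD2 the fold changes of dHD2_rec against dHD2_fl of the tested members ran from -0.25 ± 0.64 (SE) for Mtap to 0.87 ± 0.44 for Cdkn1b. Cdkn1a stood at 117, 251 and 254 CPM in dHD2_rec and at 299 and 324 CPM in dHD2_fl, again as a description. Cdkn1b stood at 56.8, 155 and 152 CPM in dHD2_rec and at 49.4 and 72.7 CPM in dHD2_fl, where dHD2_rec line 1 fell within the dHD2_fl range (limma, adjusted p = 0.618). Without dHD2_rec line 1 the Cdkn1b difference was 1.34 (limma, adjusted p = 0.0214), a call that then rested on dHD2_rec lines 2 and 3, which were nearly alike. Cdkn2c, Cdkn2d, Mtap and Rb1 differed by -0.01, -0.19, -0.25 and -0.16, less than their standard errors of 0.45 to 0.64.

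The levels of the 4 other inhibitors with reads in every line, in the lines without Cdkn2a and Cdkn2b reads, are given as values, without a test. Without cytokine Cdkn2c was at 116, 123 and 169 CPM in the 3 lines without reads and at 34.7 to 71.3 CPM in the 6 others. Cdkn2d was at 40.9, 48.0 and 30.5 CPM in these lines and at 22.3 to 31.9 CPM in the others, with overlap. Cdkn1a was at 82.6, 163 and 169 CPM and at 117 to 324 CPM in the others, again with overlap. Cdkn1b was at 55.0, 76.7 and 50.6 CPM, within the 49.4 to 155 CPM of the others. All 3 lines without reads are dHD1 lines, so that their levels and the dHD1 genotypes cannot be fully told apart. Only dHD1_fl line 1 was a dHD1 line with reads, and it had the highest Cdkn2c of the 6 lines at 71.3 CPM.

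Over the 9 line means of log2(CPM + 1), Cdkn2a and Cdkn2b correlated with each other at a Pearson r of 0.926, a value that the 3 lines at 0 largely set. Genes of the table most like Cdkn2a included Slc18a1, a vesicular monoamine transporter, at 0.988 and Kyat1 at 0.976. Those most like Cdkn2b were Tfap2c, a transcription factor of the mammary epithelium, at 0.988, Tmem184a at 0.978 and Tnfrsf12a at 0.965. For Cdkn1a they were D230025D16Rik at 0.982, Map6 at 0.959 and Klf4, a transcription factor, at 0.959. Cdkn2c had a negative r of -0.936 with Cdkn2b and -0.798 with Cdkn2a. Cdkn2d likewise stood at -0.813 and -0.771, and Mtap at -0.677 and -0.788. Cdkn1a had a positive r of 0.544 with Cdkn2b and 0.777 with Cdkn2a. Cdkn1b and Rb1 lay between -0.434 and 0.244. The 3 lines at 0 enter every r with Cdkn2a or Cdkn2b. These values describe 9 points, of which dHD2_rec lines 2 and 3 are nearly the same, and carry no p.

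Of the genes on which these inhibitors act, calls under TGFβ were read against the 5.42% of all genes called. Of 16 G1 cyclins, CDKs, Rb relatives and E2F factors, none was called by limma (median log2 fold change -0.30, against -0.16 over all genes), and with the replicate block 1 fell, Ccna2. Of 16 replication and mitosis genes, 1 fell and none rose (median -0.53), counts of 0 and 1 in 16 that lie near the share over all genes. The gene that fell was Mki67, a proliferation marker, at -1.63 ± 0.44 in limma (log2 fold change and SE, adjusted p = 0.0176), which had lower CPM in 9 of 9 lines, from 250 to 10.9 CPM in dHD1_fl line 1 to 186 to 173 CPM in dHD1_rec line 1. It did not pass in edgeR (adjusted p = 0.0618) or without dHD1_rec line 2 (0.0964), dHD2_fl line 1 (0.0573) or dHD2_fl line 2 (0.0994).

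Among 16 genes that carry TGFβ signals to the cell cycle, 1 rose and 2 fell (median 0.04). Smad7, an inhibitory Smad that TGFβ itself induces, rose by 1.71 ± 0.22 on the log2 scale (SE, limma, adjusted p = 9.27e-05), with a higher CPM in 9 of 9 lines. Id2 and Id1, inhibitors of basic helix-loop-helix factors, were lower in 9 of 9 lines, with log2 fold changes of -2.78 ± 0.32 (SE, limma, adjusted p = 4.72e-05) for Id2 and -1.55 ± 0.49 (adjusted p = 0.0382) for Id1. Smad7 and Id2 passed in all 18 alternatives and Id1 in 7, its adjusted p reaching 0.146 without dHD2_fl line 1. Smad7 was also higher in the 3 lines without Cdkn2b reads, from 78.7 to 112, 43.4 to 120 and 26.9 to 124 CPM. Each is a single pair of libraries, and the change within a line was not tested.

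Of 15 tested genes among Polycomb and other regulators of the Cdkn2a locus, 1 fell and none rose (median -0.02). Cbx7, a Polycomb protein known to repress the locus, went from 11.4 to 42.6 CPM without cytokine to 3.48 to 17.7 CPM with TGFβ and was lower in 9 of 9 lines (-1.36 ± 0.14, SE, limma, adjusted p = 1.22e-05). Of p53 and 13 of its target genes, 2 fell and none rose, against a list median of 0.21. Perp, a desmosomal p53 target, was lower in 8 of 9 lines (-1.38 ± 0.24, SE, limma, adjusted p = 0.00102), and Sesn1 in 9 of 9 (-1.42 ± 0.44, adjusted p = 0.0364). Sesn1 passed in 7 of 18 alternatives, its adjusted p reaching 0.202 without both lines lacking Epcam, and Cbx7 and Perp in all 18.

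Under Wnt3a no gene of these lists was called by limma, and with the replicate block 1 was, Id2, which was lower. For dHD1_rec against dHD1_fl neither fit called a gene of the lists. In dHD2_rec against dHD2_fl, Ccnd2 and Eda2r fell. Ccnd2, a D-type cyclin that the INK4 proteins oppose, stood at 15.9, 0.630 and 0.251 CPM in dHD2_rec and at 163 and 110 CPM in dHD2_fl (-5.37 ± 0.94, SE, limma, adjusted p = 0.00725), and at 1.83 CPM or less in the dHD1 lines. Eda2r, a p53 target of the TNF receptor family, stood at 3.28, 1.67 and 1.76 CPM in dHD2_rec and at 87.3 and 36.8 CPM in dHD2_fl (-4.19 ± 0.68, SE, limma, adjusted p = 0.00381). Ccnd2 passed in 10 of 18 alternatives and Eda2r in 13. The adjusted p of Ccnd2 was 0.471 in edgeR, and without dHD2_fl line 1 it was 0.142 for Ccnd2 and 0.103 for Eda2r.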

How the data were processed

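RNA was measured in 27 libraries of 9 mouse cell lines. The authors prepared stranded mRNA libraries, aligned reads to mm10 with STAR, used QuasR to count unique hits by their start in RefSeq exons, and deposited CPM values, that is reads per 1000000 assigned reads. All values (100%, within 0.01 read) were whole multiples of 1 read, so reads were recovered. Of 24454 identifiers, 24374 matched a symbol. The members and gene lists were chosen with earlier results of these data known.

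The 13270 genes that reached 1 CPM in 2 or more libraries entered limma 3.58.1 (R 4.3.3) as log2(CPM + 1), with trend and robust settings, 12 group means and no block. Fold changes on this scale understate those of low genes. Calls needed 0.05 or less for the p adjusted after Benjamini-Hochberg, and 1 or more for the log2 fold change in either direction. edgeR 4.0.16 on recovered reads was an alternative. The script was tested on simulated data. Libraries of 1 line deviated together from their group means (27 pairs, r 0.509 to 0.94), so that cell line pairs the treatments. The text names all members, up to 4 called genes per list with the largest change, neighbors of Cdkn2a within 3 Mb and the 3 genes most like Cdkn2a, Cdkn2b and Cdkn1a, of which 1 is not reported here. P-values measure the spread between lines. Exon lengths came from GENCODE on GRCm38.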

Additional observations from a re-analysis of the deposited data

Results flagged for a closer look

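Under Wnt3a the lines of some genotypes moved in opposite directions for Cdkn2c and Cdkn2d. This was not tested as a difference, and no share of all genes with such a pattern is given beside it. Cdkn2c had lower CPM with Wnt3a in both dHD1_fl lines (log2 changes of -0.27 and -0.23) and both dHD2_fl lines (-0.22 and -0.70), and higher CPM in the 3 dHD2_rec lines (0.08, 0.23 and 0.22). The mean changes differed by -0.43 between dHD1_fl and dHD2_rec and by -0.64 between dHD2_fl and dHD2_rec. Cdkn2d had lower CPM in both dHD2_fl lines (-0.01 and -0.88) and higher CPM in both dHD1_rec lines (0.47 and 0.54) and the 3 dHD2_rec lines (0.07, 0.75 and 0.71). The mean changes differed by 0.95 between dHD1_rec and dHD2_fl and by -0.96 between dHD2_fl and dHD2_rec. With 2 or 3 lines to a genotype, dHD2_rec lines 2 and 3 nearly alike and changes close to 0 among them, these are values to look at again.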

How the results depend on the processing

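The number of genes called under TGFβ was 719. It was 2234 without a limit on the fold change and 1184 with a replicate block. Leaving out a line gave 455 (without dHD2_fl line 2) to 933 (without dHD1_fl line 2) calls, and 465 without dHD2_fl line 1. Under Wnt3a, 3 genes were called, 5 without a fold limit, 5 without a filter on low values, 32 with the replicate block, 77 without both lines lacking Epcam, and 1 to 81 when a line was left out (1 without dHD1_rec line 1 or dHD2_fl line 2, 81 without dHD1_fl line 2). For dHD1_rec against dHD1_fl, 9 genes were called, 5 with a pseudocount of 0.1, 14 without a filter, 0 in edgeR, 0 with only the groups compared, 23 with the replicate block, 5 with dHD2_rec lines 2 and 3 averaged, 191 without both lines lacking Epcam, and 5 to 225 when a line was left out (225 without dHD1_fl line 2). For dHD2_rec against dHD2_fl, 73 genes were called, 4 in edgeR, 0 with only the groups compared, 28 with the averaged lines, 167 without both lines lacking Epcam, and 26 to 749 when a line was left out (749 without dHD2_rec line 1). The causes were not tested.

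Signs turned for members that passed no test. When a line was left out, the dHD1 difference ran from -0.09 to 0.71 for Cdkn2d and from -0.40 to 0.19 for Cdkn1b. The dHD2 difference ran from -0.82 to 0.30 for Mtap, -0.16 to 0.20 for Cdkn2c, -0.40 to 0.03 for Cdkn2d and -0.45 to 0.01 for Rb1. Mtap in dHD2 also turned with the averaged lines (0.03) and Cdkn2c in edgeR (0.03). For the members, the replicate block turned no sign and changed no call among those tested. The rec and fl lines share a number only, so that the block on it is no evidence of pairing between genotypes. Depth limits the genes near the floor of 3 reads, Cdkn1c and the low neighbors of the locus.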

Other observations

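Of the 6 mammary epithelial markers, none was called under TGFβ in limma (median log2 fold change -1.13), and with the replicate block Krt5, Krt14 and Cdh1 fell. In dHD1_rec line 1, which had no Cdkn2a and Cdkn2b reads, Cdh1 went from 817 to 4.29 CPM and Epcam from 263 to 12.5 CPM with TGFβ, while Cdkn1a went from 163 to 183 CPM, the smallest ratio of the 9 lines. The values of 1 line are not a test of a relation. Of the fibroblast markers none was called, and with the replicate block Col1a1 rose. Of the immune markers 1 of 6 was tested and was not called. Of the endothelial markers 1 of 2 tested was called, Cdh5 (1.20 ± 0.29, SE, limma, adjusted p = 0.00967). It went from at most 0.407 CPM without cytokine to 0.340 to 6.32 CPM with TGFβ. Cdh5 reached 1 CPM in TGFβ libraries only and passed the filter through them, so that its call is a description and no test of a rise. Cdh5 passed in 15 of 18 alternatives and was lost without dHD1_fl line 1, dHD1_rec line 2 or dHD2_fl line 2, the last with an adjusted p of 0.0604. No marker was called under Wnt3a or in either genotype comparison by limma or with the replicate block.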
